A study of Mus musculus with 8 samples.

Results

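Procr, Ednrb, Tarm1, Layn, Slc16a9, Serpinb9b and Dnmt3l are 7 mouse genes outside a list of 31 detoxifying targets of the transcription factor NRF2 that nevertheless differed strongly with NRF2 in macrophages treated with dimethyl itaconate (DI). They were picked by hand because DI raised them in wild-type cells, or because wild-type DI cells held them far above Nrf2 knockout DI cells, in the same 8 libraries described here, and no numeric threshold was part of that choice. They are 7 of the 22165 genes in the deposited count table and 7 of the 11079 genes that passed a filter on low counts. The differences between DI and untreated wild-type cells and between knockout and wild-type DI cells chose the genes, so both are given as descriptions with no test. The other pair of comparisons, knockout against wild type without DI and DI against no DI in knockout cells, were not used to pick the genes and were tested. Each of them still shares 2 libraries with a comparison that was used.

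NRF2, the product of Nfe2l2, is a transcription factor held at low level in resting cells by KEAP1, which binds it and directs it to the proteasome. Electrophiles modify cysteines of KEAP1, NRF2 then accumulates, pairs with a small MAF protein and binds antioxidant response elements. It is best known for genes of glutathione synthesis, quinone reduction and heme breakdown. DI is a membrane-permeable electrophilic ester of itaconate, a metabolite that activated macrophages make. The 7 genes encode proteins of other kinds. Procr is the endothelial protein C receptor, Ednrb a G protein-coupled receptor for endothelins, Tarm1 an activating receptor of myeloid cells that engages T cells and Layn the hyaluronan receptor layilin. Slc16a9 is a member of the monocarboxylate transporter family that carries carnitine. Serpinb9b is an intracellular clade B serpin related to the granzyme B inhibitor Serpinb9, and Dnmt3l is a regulator of the DNA methyltransferases DNMT3A and DNMT3B that has no catalytic activity of its own.

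Bone marrow-derived macrophages of C57BL/6 mice were grown for 7 days in medium with M-CSF, and poly(A) RNA was sequenced in 4 groups of 2 libraries. KO DI cells lacked Nrf2 (Nrf2-/-) and received 250 µM DI for 12 h, KO untreated cells were Nrf2-/- cells labelled as controls, WT DI cells were wild type with the same DI treatment and WT untreated cells were wild-type controls. Nrf2-/- mice came from the Jackson Laboratory, a line that lacks the gene in all cells. The treatment label spells the agent Demethyl Itaconate, while the protocol and the design text give dimethyl itaconate, and no vehicle is named. Reads came from the 3′ ends of transcripts, since cDNA was primed with barcoded oligo-dT. Nothing in the labels ties the paired libraries of a group to different animals or culture dishes. The p-values below therefore describe the spread among these libraries, and that spread may be technical.

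The stretch just upstream of the start site is where an antioxidant response element close to a promoter would lie, so the 250 bases before the RefSeq start (GRCm38.p6, the assembly called mm10) are shown for 3 of the genes. Procr and Tarm1 are shown because their windows hold a match to the core TGACNNNGC of that element, and Ednrb because it passed both tests below and held no match. Capitals mark the match, which in Tarm1 lies on the opposite strand.
Procr: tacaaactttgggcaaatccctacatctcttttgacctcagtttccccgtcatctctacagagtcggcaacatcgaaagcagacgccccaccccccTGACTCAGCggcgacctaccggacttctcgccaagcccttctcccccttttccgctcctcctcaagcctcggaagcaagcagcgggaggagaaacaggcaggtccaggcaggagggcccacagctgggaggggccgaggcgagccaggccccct
Tarm1: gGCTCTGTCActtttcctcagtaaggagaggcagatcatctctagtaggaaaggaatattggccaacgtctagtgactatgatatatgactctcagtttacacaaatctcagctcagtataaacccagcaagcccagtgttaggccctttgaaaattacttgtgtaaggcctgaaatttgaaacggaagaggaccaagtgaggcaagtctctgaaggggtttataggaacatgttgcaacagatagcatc
Ednrb: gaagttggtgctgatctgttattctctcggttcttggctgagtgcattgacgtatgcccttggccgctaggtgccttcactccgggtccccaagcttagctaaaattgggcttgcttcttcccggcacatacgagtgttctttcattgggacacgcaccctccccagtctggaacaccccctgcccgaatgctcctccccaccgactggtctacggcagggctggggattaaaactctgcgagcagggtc
The windows are chr2:155750967-155751216 on the plus strand for Procr, chr7:3502625-3502874 on the minus strand for Tarm1 and chr14:103843702-103843951 on the minus strand for Ednrb. Gene coordinates given below are those of GENCODE M21, whose starts for Procr and Ednrb lie upstream of the RefSeq starts. The Ednrb window therefore lies wholly, and the Procr window partly, inside the gene as GENCODE gives it, and the Tarm1 window begins at the GENCODE start. RefSeq promoter windows of 300 bases, which add 50 bases after the start, were found for all 7 genes and searched on both strands. The match lay at positions -154 to -146 from the start site in Procr and at -249 to -241 in Tarm1. Thus 2 of 7 genes held the core, against 13.99% of the 27025 genes with a window and 8 of 27 detoxifying NRF2 targets. The related sequence TGANTCA, the AP-1 element, occurred in Procr alone of the 7, at -154 to -148, where it overlaps the first match. It occurred in 8.97% of all genes and in 6 of 27 detoxifying targets. A match is a description of these letters, and elements outside the windows were not searched.

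Total counts per library were 5554288 to 15680671, and 12418 to 13481 genes had at least 1 count. Levels are given in CPM, a count relative to the library size scaled by TMM. Nfe2l2, the gene targeted in the knockout, was at 40.2 to 88.0 CPM in the KO libraries and at 230 to 454 CPM in the WT libraries. Whether its counted 3′ reads lie in the deleted stretch is unknown, so this checks the genotype only weakly. All 10 macrophage markers were detected, and their summed level was 5484 to 6075 CPM in KO DI, 8060 to 8319 in KO untreated, 5797 to 6621 in WT DI and 6733 to 7077 CPM in WT untreated libraries. The filter asked for at least 1.06 CPM in 2 libraries. Tarm1, Dnmt3l and Slc16a9 passed it only through the WT DI libraries, while Procr, Ednrb, Serpinb9b and Layn would also have passed without them.

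WT DI cells held all 7 genes at their highest level, and in each gene both WT DI libraries stood above the other 6. The order of the remaining groups differed. WT untreated cells were next, then KO DI and then KO untreated cells, with no overlap between neighbours, for Procr, Ednrb and Layn. Dnmt3l followed the same order of means, but its WT untreated and KO DI libraries overlapped. For Serpinb9b and Tarm1 the KO DI mean was above the WT untreated mean, again with overlapping libraries, and KO untreated cells were lowest. Slc16a9 was the exception at the low end, with KO untreated above KO DI in the mean and overlapping KO libraries. That WT DI was highest largely follows from the choice of the genes. Non-overlap was common over all tested genes, at 29.1% for KO DI above KO untreated libraries and 21.7% for KO untreated below WT untreated. No share was computed for WT untreated above KO DI libraries or for the whole order.

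**Figure D1:**
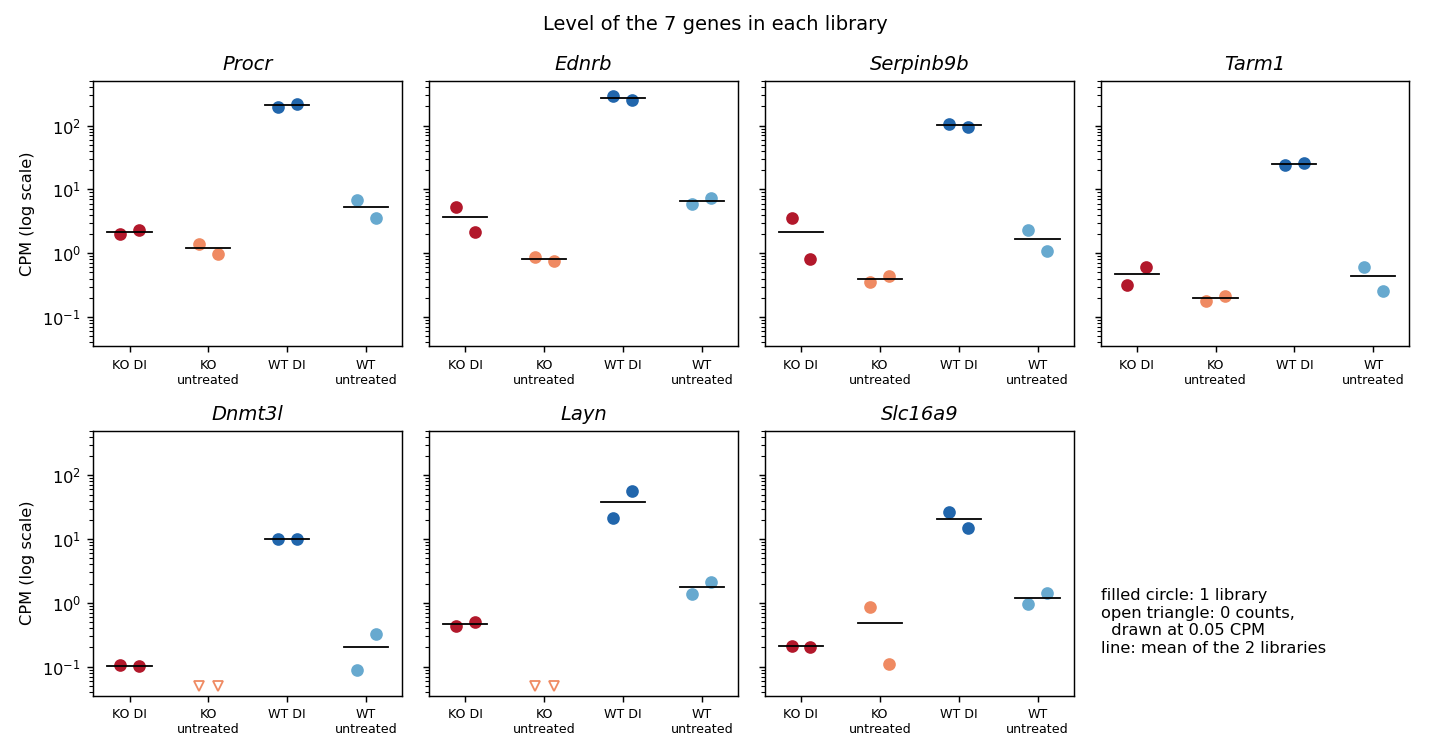
Level of each of the 7 genes in CPM on a log scale, 1 point per library and a line at the mean of 2, with groups in the order KO DI, KO untreated, WT DI and WT untreated. Open triangles are libraries with 0 counts, which were seen only for Dnmt3l and Layn in KO untreated cells, and every WT DI point lies above all other points of its gene.

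Procr (ENSMUSG00000027611, chromosome 2, 155751117 to 155755471) binds protein C and presents it to thrombin and thrombomodulin for activation. It had 2.03 and 2.33 CPM in KO DI, 1.40 and 0.976 in KO untreated, 196 and 221 in WT DI and 6.90 and 3.62 CPM in WT untreated libraries. No groups overlapped, and the KO libraries lay below both WT groups whatever the treatment. Pooled over libraries, Procr was 42.2-fold higher in WT DI than in WT untreated cells (95% counting interval 35.5 to 50.5), and KO DI cells were 97.0-fold below WT DI cells (71.6 to 135). Counting intervals cover counting error only and leave out the spread between libraries. No molecular identifier is described for the reads, so copies of 1 molecule may have been counted more than once. Without DI, Procr fell in KO cells by 2.16 ± 0.43 (SE) on the log2 scale, at edgeR adjusted p = 0.0346 and lower in both KO libraries. In KO cells, DI over untreated was 0.92 ± 0.46 on the log2 scale with edgeR adjusted p = 0.222, which did not pass.

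That Procr call without DI rested on few counts, 17 over the KO untreated libraries against 135 over the WT untreated libraries. These libraries did not overlap, so leaving 1 out could hardly turn the sign. The call itself was less stable. It was lost without KO untreated replicate 1 (adjusted p = 0.209), without KO untreated replicate 2 (0.369), without WT untreated replicate 1 (0.120) and without either KO DI library (0.0526 and 0.0532). Over 14 alternatives the edgeR or DESeq2 adjusted p ran over 2.05e-05 to 0.369 and the log2 change over -2.57 to -1.64, always lower in KO.

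Ednrb (ENSMUSG00000022122, chromosome 14, 103814625 to 103844402) encodes the type B endothelin receptor, which signals through G proteins and also clears endothelin. It had 5.23 and 2.13 CPM in KO DI, 0.874 and 0.759 in KO untreated, 294 and 253 in WT DI and 5.94 and 7.44 CPM in WT untreated libraries. Each group stood apart from its neighbours, with KO untreated lowest. Ednrb was the one gene of the 7 that passed both tests. Without DI it fell in KO cells by 3.04 ± 0.52 on the log2 scale with edgeR adjusted p = 0.0117, and in KO cells DI raised it by 2.17 ± 0.54 with edgeR adjusted p = 0.0211. KO DI cells still held 73.8-fold less than WT DI cells (95% counting interval 58.3 to 94.8), and WT DI cells were 39.5-fold above WT untreated cells (34.0 to 46.0).

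Both Ednrb calls involve the KO untreated libraries, which held 5 and 7 counts. The difference without DI was lost without KO untreated replicate 1 (adjusted p = 0.105), KO untreated replicate 2 (0.183) or WT untreated replicate 2 (0.0634), within a range of 2.97e-10 to 0.183 over 14 alternatives. The DI effect in KO cells was lost without KO DI replicate 1 (0.143) and without either KO untreated library (0.115 and 0.171), within a range of 7.30e-05 to 0.171. The sign of either change was the same in all of them, but with no overlap between the groups leaving out 1 library could hardly turn it.

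Tarm1 (ENSMUSG00000053338, chromosome 7, 3486500 to 3502624) had 0.320 and 0.608 CPM in KO DI, 0.175 and 0.217 in KO untreated, 24.0 and 26.1 in WT DI and 0.611 and 0.259 CPM in WT untreated libraries. Outside the WT DI libraries, with 153 and 280 counts, no library had more than 7 counts. Tarm1 in WT DI cells was 61.9-fold above WT untreated cells (95% counting interval 34.3 to 125), and KO DI cells were 54.1-fold below WT DI cells (28.3 to 119). KO untreated cells held 3 counts against 11 in WT untreated cells, a ratio of 0.491 (95% counting interval 0.0880 to 1.86) with edgeR adjusted p = 0.747. The ratio of KO DI to KO untreated cells was 2.33 (0.581 to 13.4) with edgeR adjusted p = 0.393. Neither difference was detectable at this depth. The last 400 bases of its longest coding transcript aligned to 404 other genes, over at most 166 bases at 84.3% identity, and to 7 of them at 90% identity or more, over at most 71 bases. The sources used here do not give how such reads were counted, so the Tarm1 counts are uncertain to that extent.

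Layn (ENSMUSG00000060594, chromosome 9, 51054640 to 51077094) had 0.427 and 0.506 CPM in KO DI, 0 in both KO untreated, 21.2 and 55.8 in WT DI and 1.40 and 2.13 CPM in WT untreated libraries. It showed the widest gap between WT DI libraries, replicate 2 holding 2.63 times the level of replicate 1, and both still exceeded all other libraries. Without DI, Layn had 0 counts over the KO libraries against 49 over the WT libraries. With the KO group set at a floor of 3 counts this is 9.07-fold lower in KO. Such a fold leaves out the counting error of the other group, so it is no strict lower limit. The edgeR adjusted p was 0.0697, short of the threshold. It passed in 5 of 14 alternatives, among them DESeq2 (0.00755) and the fit without either WT DI library (0.0167 and 0.0238), over a range of 1.29e-07 to 0.410. In KO cells, 9 counts with DI against 0 without is 2.33-fold higher at the floor of 3 counts, with edgeR adjusted p = 0.139. In the comparisons used to pick it, Layn was 23.6-fold higher in WT DI than in WT untreated cells (95% counting interval 17.6 to 32.2) and 91.8-fold lower in KO DI than in WT DI cells (48.1 to 202).

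Slc16a9 (ENSMUSG00000037762, chromosome 10, 70245100 to 70285968) had 0.213 and 0.203 CPM in KO DI, 0.874 and 0.109 in KO untreated, 26.4 and 15.2 in WT DI and 0.961 and 1.42 CPM in WT untreated libraries. WT DI replicate 1 held 1.74 times the level of replicate 2, the reverse of Layn. The gene had the smallest difference of the 7 between WT DI and WT untreated cells, at 15.8-fold higher (95% counting interval 11.02 to 23.3). Its gap between KO DI and WT DI cells was 93.1-fold lower in KO (36.0 to 344), with 4 counts over the KO DI libraries against 331. Without DI the KO over WT change was -1.52 ± 0.78 on the log2 scale at edgeR adjusted p = 0.490, and the KO libraries both lay below the WT libraries. In KO cells DI over untreated was -0.95 ± 1.08 with edgeR adjusted p = 0.596, and without KO untreated replicate 1 the sign turned to 0.86 (adjusted p = 0.789). The direction of the DI effect on Slc16a9 in KO cells was therefore not detectable at this depth. The last 400 bases of its transcript aligned to 220 other genes, 182 of them at 90% identity or more over at most 51 bases.

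Serpinb9b (ENSMUSG00000021403, chromosome 13, 33027416 to 33041884) had 3.52 and 0.810 CPM in KO DI, 0.350 and 0.434 in KO untreated, 106 and 96.5 in WT DI and 2.27 and 1.10 CPM in WT untreated libraries. The KO DI libraries differed 4.35-fold from each other and spanned the WT untreated range. WT DI cells were 62.7-fold above WT untreated cells (95% counting interval 46.4 to 87.0) and KO DI cells 47.0-fold below WT DI cells (34.5 to 65.8). Without DI the KO over WT change was -1.996 ± 0.873 on the log2 scale with edgeR adjusted p = 0.359. DI over untreated in KO cells was 2.38 ± 0.88 with edgeR adjusted p = 0.0746, a change that passed with DESeq2 (0.0152), with no filter (0.000514) and without KO DI replicate 2 (0.0149), within 0.000514 to 0.524 over 14 alternatives. The last 400 bases of its transcript aligned to 1 other gene, Serpinb9, over 331 bases at 88.2% identity.

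Dnmt3l (ENSMUSG00000000730, chromosome 10, 78041947 to 78063622) rested on the fewest counts of the 7. It had 0.107 and 0.101 CPM in KO DI, 0 in both KO untreated, 10.05 and 10.06 in WT DI and 0.0873 and 0.323 CPM in WT untreated libraries. The WT DI libraries held 64 and 108 counts, and no other library had more than 5. WT DI cells were 45.1-fold above WT untreated cells (95% counting interval 20.3 to 125), and KO DI cells 96.8-fold below WT DI cells (26.4 to 805), with 2 counts in the KO group. Without DI, 0 counts in KO against 6 in WT is 1.11-fold lower with the same floor of 3 counts, with edgeR adjusted p = 0.425. That fold leaves out the counting error of the 6 counts. KO cells with DI held 2 counts and without DI 0, both under the floor, with edgeR adjusted p = 0.336. The last 400 bases of its transcript aligned to its pseudogene Dnmt3l-ps1 over 125 bases at 77.6% identity, while those of Procr, Ednrb and Layn aligned to no other gene.

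Counts over several of the genes are given for the 4 that would have passed the filter without the WT DI libraries, Procr, Ednrb, Serpinb9b and Layn. Without the WT DI libraries Layn would have passed through the WT untreated libraries alone, and Serpinb9b through these and KO DI replicate 1. The WT untreated libraries are the high group of the comparison that follows. For Layn and Serpinb9b its outcome is therefore partly fixed by the filter. KO untreated libraries lay below WT untreated libraries without overlap in all 4, where libraries did not overlap in that direction in 21.7% of all tested genes. Procr and Ednrb passed as lower, 2 of the 4, where 0.524% of all tested genes passed as lower and 0.0812% as higher. The WT untreated libraries enter this comparison and also one used to pick the genes. Tarm1, Dnmt3l and Slc16a9, which passed the filter through WT DI alone, are left to their counts above.

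For DI in KO cells, KO DI libraries lay above KO untreated libraries without overlap in the same 4 genes, where libraries did not overlap in that direction in 29.1% of all tested genes. Ednrb passed as higher, 1 of the 4, where 4.49% of all tested genes passed as higher and 4.0% as lower. The KO DI libraries enter this comparison and one used to pick the genes.

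In the comparisons behind the choice, the log2 differences lay between 4.08 for Slc16a9 and 5.94 for Serpinb9b for WT DI over WT untreated cells, and between -6.57 for Procr and -5.55 for Serpinb9b for KO DI over WT DI cells.

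**Figure D2:**
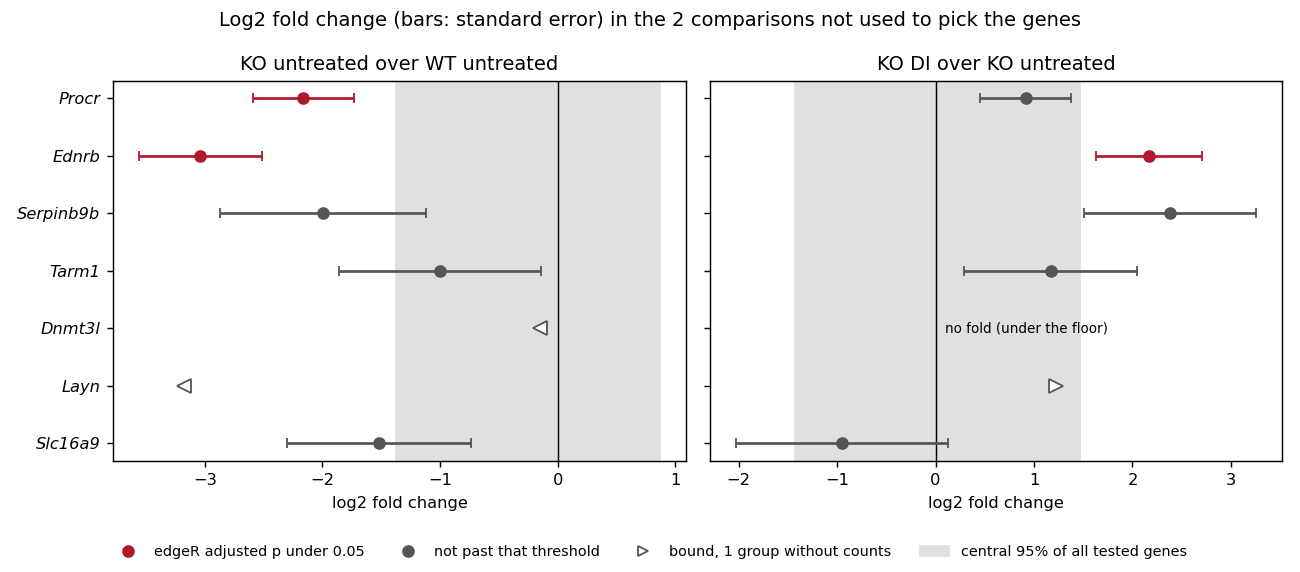
Log2 fold change of each gene with its standard error for KO untreated over WT untreated cells and KO DI over KO untreated cells. Open triangles, called bounds in the key, are folds with a group without counts set at 3 counts. A grey band covers the central 95% of all tested genes. Procr and Ednrb on the left and Ednrb on the right, in red, passed at an edgeR adjusted p under 0.05.

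Procr and Ednrb are widely used as endothelial genes, so 10 endothelial markers were summed. The sum was 121 to 147 CPM in KO DI, 107 to 112 in KO untreated, 41.6 to 47.0 in WT DI and 89.3 to 112 CPM in WT untreated libraries, with Tek and Cldn5 at 0 counts in all of them and 6 of 10 markers with 10 or more counts. Most of this sum was Kdr, the VEGF receptor 2, at 91.5 and 118 CPM in KO DI, 95.5 and 96.1 in KO untreated, 20.3 and 19.2 in WT DI and at least 77.5 CPM in both WT untreated libraries. The other markers together moved differently, at 29.4 to 29.6 CPM in KO DI, 11.2 to 16.1 in KO untreated, 21.4 to 27.8 in WT DI and 11.9 to 12.03 CPM in WT untreated libraries. Without Kdr the sum was therefore higher with DI in either genotype, and most of it was Vwf, von Willebrand factor, at 17.9 and 21.9 CPM in WT DI against 7.95 and 9.44 CPM in WT untreated libraries. The low markers disagreed with each other. Cdh5 had 0.314 and 0.838 CPM in WT DI against 1.31 and 1.29 in WT untreated libraries. Esam had 2.04 and 2.79 CPM in WT DI against 0.786 and 0 in WT untreated libraries. Stromal markers moved with genotype. Their summed level was 45.3 to 46.2 CPM in KO DI, 48.6 to 50.2 in KO untreated, 109 to 120 in WT DI and 92.6 to 134 CPM in WT untreated libraries, with 7 of 10 at 10 or more counts and Lum at 0. In bulk RNA, fewer cells of a type and less RNA per cell cannot be told apart, and the part of these cells in the levels of the 7 genes was not tested.

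The sum of the 8 erythroid and megakaryocyte markers was 356 to 507 CPM in KO DI, 236 to 283 in KO untreated, 708 to 739 in WT DI and 208 to 210 CPM in WT untreated libraries. It came almost wholly from the platelet chemokine Pf4, while Hbb-bs and Alas2 were among those at 0. Stem and progenitor markers, to which Procr is often added, summed to 166 to 201 CPM in KO DI, 416 to 466 in KO untreated, 616 to 654 in WT DI and 556 to 656 CPM in WT untreated libraries, mostly from Ly6a. Neutrophil markers were at 248 to 307 CPM in KO DI, 269 to 311 in KO untreated, 252 to 325 in WT DI and 377 to 389 CPM in WT untreated libraries. Dendritic cell, lymphocyte and mast cell markers summed to at most 17.6, 3.88 and 4.98 CPM in any library. The part of these cells was not tested. Counts were also more concentrated in WT DI libraries, where the top 10 genes held 13.2 to 13.3% of them, against 7.68 to 9.32% elsewhere.

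Genes that work beside the 7 were taken from 7 lists of pathway or family partners, 66 of whose genes were tested. In WT cells DI raised 10 of the 66 and lowered 6, where 6.51% of all tested genes rose and 8.68% fell. In DI, 6 of the 66 were higher and 11 lower in KO than in WT cells, against 11.4% and 9.74% of all tested genes. The 10 raised and the 11 lower genes include Treml4, which passed the filter only through the WT DI libraries. In KO cells DI raised 3 of the 66 and lowered 2, where 4.49% and 4.0% of all tested genes did so. Without DI 1 of the 66 was lower in KO by edgeR, where 0.524% of all tested genes were. By DESeq2 4 were, where 155 of all 11079 tested genes were. No partner was higher in untreated KO cells by edgeR or by DESeq2, and 3 had an unadjusted edgeR p under 0.05. The DI effect itself differed between the genotypes by edgeR's interaction test in 8 of the 66, more positive in KO cells in 4 and more negative in 4, where 4.96% and 2.59% of all tested genes did so. Of 30 detoxifying targets, DI raised 26 in WT and 9 in KO cells and lowered 1 in KO cells. In untreated KO cells 9 were lower, and 27 were lower in KO DI than in WT DI cells. The 26 and the 27 include Gsta3, which passed the filter only through the WT DI libraries. It had 234 and 445 counts there and at most 4 in any other library. Medians of those 30 were 2.71 for DI in WT cells, 0.48 for DI in KO cells, -1.05 for KO over WT without DI and -3.35 for KO over WT in DI, all on the log2 scale.

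**Figure D3:**
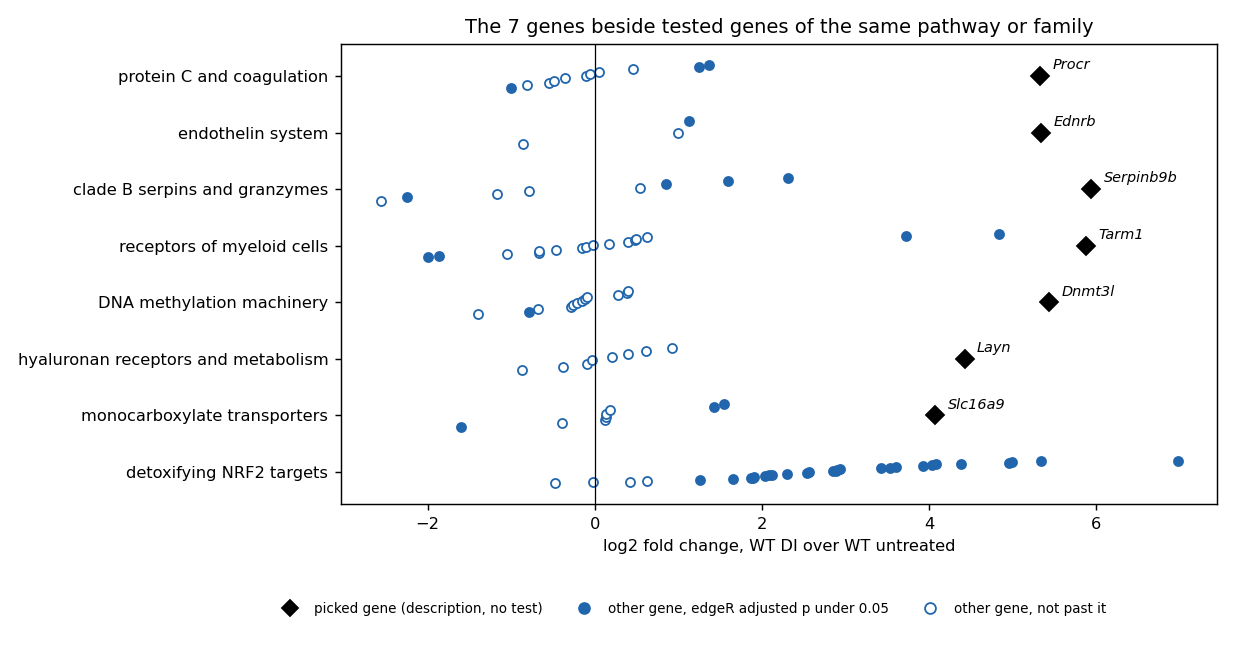
Log2 fold change of WT DI over WT untreated cells for each of the 7 genes (diamonds) beside the other tested genes of its pathway or family list and the detoxifying NRF2 targets, filled where the edgeR adjusted p was under 0.05. The picked genes lie at 4.08 to 5.94, to the right of every other gene of their own lists, and among the detoxifying targets points reach both lower and higher values. The place of the picked genes follows from their choice, which used this comparison.

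Around Procr, 11 partners of the protein C and coagulation list were tested. DI raised 2 and lowered 1 of them in KO cells (4.49% and 4.0% of all tested genes). In WT cells it also raised 2 and lowered 1 (6.51% and 8.68% of all). In KO DI against WT DI cells 1 was lower (9.74% of all). DI raised the urokinase receptor Plaur by 0.94 in KO and by 1.37 in WT cells on the log2 scale. The anticoagulant cofactor Pros1 fell by 1.21 with DI in KO cells, and F13a1, a subunit of the clot-crosslinking factor XIII, fell in WT cells to 15.03 ± 0.718 CPM with DI, against 29.98 ± 8.81 CPM untreated (SD, n = 2 each). Thrombomodulin, Thbd, which acts with Procr on protein C, was lower (log2 change -0.91) in KO DI than in WT DI cells, a call lost without KO DI replicate 2 and without each of the KO untreated and WT DI libraries. Plaur in KO cells passed at edgeR adjusted p = 0.0492 and was lost in 9 of 13 alternatives, including the fits without KO DI replicate 1 and without each of the KO untreated, WT DI and WT untreated libraries. The Pros1 change in KO cells was lost without KO DI replicate 1 and without either KO untreated library, and the F13a1 change without either WT DI library or WT untreated replicate 2.

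Of the endothelin system 3 partners were tested, and Ece2, an endothelin-converting enzyme, rose with DI in WT cells by 1.13 on the log2 scale (edgeR adjusted p = 0.00904, lost without WT untreated replicate 1). With DI in WT cells 6.51% of all tested genes rose. No other change of Ece2, and none of Edn1 or Ece1, passed in any of the 4 comparisons by edgeR, although 2 of those results had an unadjusted p under 0.05, and DESeq2 called Ece2 in WT cells only.

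Tarm1 was set beside 16 tested receptors of myeloid cells, of which 2 rose and 2 fell with DI in WT cells (6.51% and 8.68% of all tested genes). Of the 16, 1 was lower in KO cells without DI (0.524% of all), and 2 were higher and 4 lower in KO DI than in WT DI cells (11.4% and 9.74% of all). The C-type lectin Clec4n, known as Dectin-2, had 9.49 and 9.01 CPM in KO DI, 6.82 and 9.33 in KO untreated, 239 and 236 in WT DI and 19.7 and 16.2 CPM in WT untreated libraries. It rose by 3.72 with DI in WT cells and was lower in KO DI than in WT DI cells, with a log2 change of -4.68. Treml4, a receptor of the TREM family, rose by 4.84 in WT cells, and its change in KO DI over WT DI cells was -5.89. Treml4 passed the filter only through the WT DI libraries, with 53 and 123 counts, and no other library had more than 5. The counts of receptors above include it. Clec7a, the beta-glucan receptor Dectin-1, was lower in KO cells, with changes of -1.10 without DI and -1.87 in DI. The first of these was lost without any 1 of the KO DI, KO untreated or WT untreated libraries. In the opposite direction, the activating receptor Clec5a and the inhibitory receptor Cd300lf fell with DI in WT cells (-1.99 and -1.86), and both were higher in KO DI than in WT DI cells, by 2.64 and 2.13. The Clec5a fall was lost without WT DI replicate 2. Trem2, a lipid-sensing receptor, was lower in KO DI than in WT DI cells (-1.16).

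Of 8 tested clade B serpins and granzymes other than Serpinb9b, DI in WT cells raised Serpinb1b by 2.32, Serpinb9 by 1.59 and Serpinb6a by 0.85 on the log2 scale and lowered Serpinb1c (-2.25). The first 3 were lower in KO DI than in WT DI cells, with changes of -3.02, -2.004 and -0.75. Of all tested genes, 6.51% rose and 8.68% fell with DI in WT cells, and 9.74% were lower in KO DI. Serpinb9, the near relative of Serpinb9b, had 35.6 and 50.1 CPM in KO DI, 34.1 and 61.5 in KO untreated, 131 and 213 in WT DI and 49.5 and 64.4 CPM in WT untreated libraries. WT DI libraries were thus highest for both genes, by a far smaller margin for Serpinb9, while the margin of Serpinb9b was part of its choice. The Serpinb9 rise was lost without WT DI replicate 2 or WT untreated replicate 1, the Serpinb6a rise without either WT untreated library, its difference in DI without either KO DI library or WT DI replicate 1, and the Serpinb1c fall without either WT DI library or WT untreated replicate 2. Serpinb6b fell by 0.88 in KO cells, a call lost without any 1 of the KO DI, KO untreated or WT untreated libraries. With DI in KO cells 4.0% of all tested genes fell. Serpinb9c, Serpinb9d, Serpinb9e, Serpinb9f and Serpinb9g had 0 counts in all libraries.

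DNMT3L acts on the enzymes encoded by Dnmt3a and Dnmt3b. Dnmt3a had 846 and 665 CPM in KO DI, 418 and 426 in KO untreated, 458 and 500 in WT DI and 548 and 616 CPM in WT untreated libraries, so its highest libraries were KO DI. DI raised it in KO cells by 0.84 on the log2 scale (edgeR adjusted p = 0.0346), and this was lost without KO DI replicate 1 or either KO untreated library. Dnmt3b stayed between 1.05 and 3.36 CPM in all libraries. Of 12 tested genes of DNA methylation, 1 rose with DI in KO cells, where 4.49% of all tested genes did. With DI in WT cells 1 of the 12 fell (8.68% of all), and 3 were higher in KO DI than in WT DI cells (11.4% of all). Uhrf1, which recruits DNMT1 to hemimethylated DNA, was higher by 1.67 in KO DI than in WT DI cells, a call lost without KO DI replicate 1 or either WT DI library. Dnmt3a was higher by 0.66 and the methylcytosine dioxygenase Tet2 by 0.68 in that comparison, calls lost in 10 and 11 of 13 alternatives, among them without KO DI replicate 1 and without each KO untreated, WT DI and WT untreated library. For Tet2 the fit without KO DI replicate 2 lost it too. Tet2 also fell by 0.79 with DI in WT cells, lost in 7 of 13 alternatives, among them without each KO untreated, WT DI and WT untreated library.

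Of 8 tested genes of hyaluronan binding and metabolism beside Layn, 1 call was made over the 4 comparisons. It was in KO DI against WT DI cells, where 9.74% of all tested genes were lower. Vcan, the hyaluronan-binding proteoglycan versican, was lower in KO DI than in WT DI cells (log2 change -1.45), and the call was lost with DESeq2, without any 1 of the KO DI or WT DI libraries and without WT untreated replicate 2. Among 8 tested partners of Slc16a9, DI in WT cells raised the lactate exporter Slc16a3 by 1.43 and the chaperone Emb, embigin, by 1.54 on the log2 scale. It lowered the pyruvate transporter Slc16a7 (-1.60). Of all tested genes, 6.51% rose and 8.68% fell with DI in WT cells. In KO DI against WT DI cells Slc16a7 was higher (1.42) and Emb lower (-1.33), where 11.4% and 9.74% of all tested genes were. Slc16a3 was lower (-0.86), a call lost with DESeq2 and in 7 of 8 fits without 1 library, all but the one without WT DI replicate 2.

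The pattern over libraries was also compared gene by gene, as the root mean square difference of log2 CPM (prior count 2) after each gene was centred on its mean over the 8 libraries. Among tested genes outside the group, those most like the median profile of the 7 were Gclm (0.27), Gclc (0.42), Slc22a4 (0.45), Gsta3 (0.64) and Slc7a11 (0.67). Gclm and Gclc encode the subunits of glutamate-cysteine ligase, Slc7a11 a cystine transporter, Gsta3 a glutathione transferase and Slc22a4 an ergothioneine and carnitine transporter. Gclm was at 91.3 and 90.1 CPM in KO DI, 33.4 and 39.9 in KO untreated, 4137 and 4283 in WT DI and 130 and 134 CPM in WT untreated libraries. For single genes the closest were Gclm for Procr (0.45) and Layn (0.63), Nqo1, a quinone reductase, for Ednrb (0.39), Gsta3 for Serpinb9b (0.45), Gclc for Tarm1 (0.49) and Dnmt3l (0.31), and Il1f9, an interleukin 1 family cytokine, for Slc16a9 (0.62). Within the group Tarm1 and Dnmt3l were closest to each other (0.51) and Serpinb9b and Slc16a9 farthest apart (1.30). Procr lay nearest to the median profile (0.36) and Slc16a9 farthest from it (0.83). The WT DI libraries that chose the genes dominate this measure, so it is a description with no test.

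**Figure D4:**
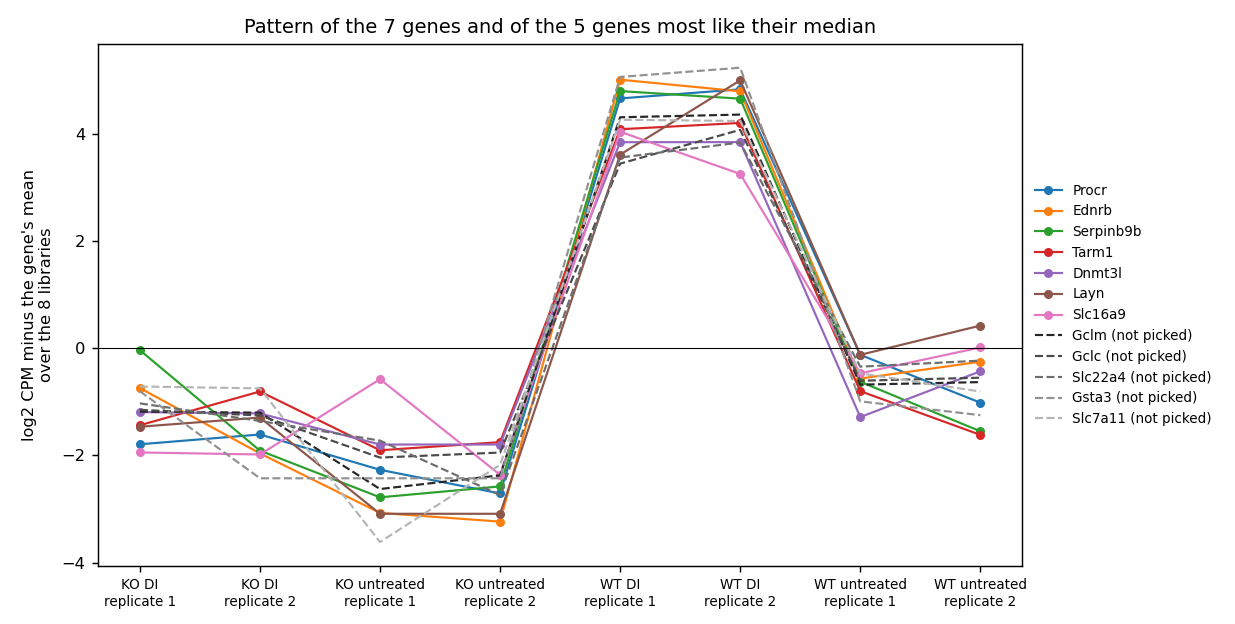
Log2 CPM of each gene minus its own mean over the 8 libraries (vertical axis), by library (horizontal axis), for the 7 genes (solid lines) and the 5 genes most like their median (dashed grey lines). All lines peak in the WT DI libraries, the lowest library of each picked gene is a KO untreated one, and Slc16a9 in KO untreated replicate 1 and Serpinb9b in KO DI replicate 1 stand above the other picked genes.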

How the data were processed

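Poly(A) RNA of 8 macrophage libraries, 2 in each of 4 groups, was counted per Ensembl gene. The deposited values are raw counts with no normalization, and the build mm10 with STAR, HTSeq and DESeq2 is listed, with no versions, in the submitters' processing notes. The annotation and the strand setting used for counting are not given in the sources used here. Per the labels' protocols the libraries are strand-specific and no molecular identifier is described. Symbols and coordinates came from GENCODE M21 by Ensembl identifier, which matched 21745 of 22165 genes, and no row without a gene was in the table.

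Genotype and treatment labels gave the groups. After filterByExpr by group (minimum count 10) and TMM scaling, the robust quasi-likelihood F-test of edgeR 4.0.16 in R 4.3.3 was run in 1 fit of all 8 libraries with 4 residual degrees of freedom. Benjamini-Hochberg adjusted p-values under 0.05 over 11079 genes were called. Fold changes are KO over WT and DI over untreated. Pooled ratios are of summed counts over summed scaled library sizes with exact 95% binomial intervals, which cover counting error only. Folds against a group without counts set that group at 3 counts and leave out the counting error of the other group. Total counts were 5554288 to 15680671 per library, and within each group they differed beyond counting error (chi-square per degree of freedom 12.8 to 37.9), so none was counted as a duplicate.

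The 7 genes, the lists and the tests were chosen with earlier results of these data known. Named partners are up to 5 genes per list by the smallest p over the 4 pairwise comparisons, close paralogs, 6 detoxifying targets, and the genes most alike in pattern (2 per gene and 5 for the median). Thbd, Trem2 and single marker genes were named after their values were seen. Some listed genes are not reported here by name. Promoter windows are from RefSeq GRCm38.p6, and 3′ ends were aligned with blastn 2.17.0. Alternatives were DESeq2 1.42.0 size factors, the DESeq2 test, no filter, the replicate number as a block, only the 4 libraries compared, a prior count of 2 and leaving out each library. The prior count changes fold changes only, so among the 14 alternatives of the 7 genes that setting repeats the p-values of the main fit. The procedure was tested on simulated data.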

Additional observations from a re-analysis of the deposited data

Results flagged for a closer look

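Among the named partner genes, the 6 detoxifying targets, Thbd and Trem2, the effect of DI differed between KO and WT cells in 11 by edgeR's interaction test. Most partners were named by the smallest p over the 4 pairwise comparisons of these libraries, so this count is not free of that choice. Of all 66 tested partners 4 had a more positive effect in KO cells and 4 a more negative one. The shares of all tested genes were 4.96% and 2.59%. Genes named only for a pattern most like that of the 7 (such as Slc22a4 and Il1f9), as cell type markers or as chromosomal neighbours are not counted here. The likeness measure already used these differences. Values are the log2 effect of DI in KO cells minus that in WT cells, with the Benjamini-Hochberg adjusted p. No such test is given for the 7 genes, since their choice used these differences. The detoxifying targets Gclm (-3.69, 0.00022), Gclc (-3.59, 0.000292) and Slc7a11 (-2.88, 0.012) and the receptor Clec4n (-3.54, 0.000284) responded less in KO cells, and of these Slc7a11 was lost without KO untreated replicate 2. Cd300lf (1.96, 0.00372), Clec5a (2.89, 0.00934) and Slc16a7 (1.97, 0.00949) had a more positive effect in KO cells, and Clec5a was lost without KO untreated replicate 2. Serpinb9, the relative of Serpinb9b, differed by -1.76 (0.0378) and was lost without KO DI replicate 1, KO untreated replicate 2, WT DI replicate 2 or either WT untreated library. Serpinb6b differed by -1.43 (0.029) and was lost without KO DI replicate 1, WT DI replicate 2 or any 1 untreated library. Dnmt3a differed by 1.12 (0.0439), lost in every fit without 1 library but that without KO DI replicate 2, and Trem2 by -1.07 (0.0428), lost in all 8 such fits.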

How the results depend on the processing

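Among the 7 genes, the change in untreated KO cells kept its sign in all alternatives. This was largely fixed beforehand, since both KO untreated libraries lay below both WT untreated libraries in each of the 7. Layn and Dnmt3l had 0 counts in the KO untreated libraries. The kept sign therefore gives no support of its own. Of the DI effects in KO cells, that of Slc16a9 ran between -2.01 and 0.86 without 1 library, turning positive without KO untreated replicate 1. Tarm1, Dnmt3l and Slc16a9, which passed the filter only through WT DI, were called in none of the alternatives. The calls are therefore given over the other 4 genes. KO against WT without DI called 2 of the 4 as lower, beside 58 of all tested genes. With no filter it called 4 beside 325, and with only the 4 libraries compared 1 beside 62. DI in KO cells called 1 of the 4 as higher, beside 497 of all tested genes. This comparison called 3 beside 1029 with no filter, 0 beside 553 with only the 4 libraries and 2 beside 708 with DESeq2. Both counts of calls also changed without 1 library. The causes were not tested.

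Counts over all genes moved as well. With no filter, DI in KO cells gave 1029 higher and 668 lower genes, KO against WT without DI 72 and 325, and the interaction 1106 and 491, in place of 497, 443, 9, 58, 549 and 287. Without DI, DESeq2 called 36 higher and 155 lower in KO, and the 4 libraries alone 17 higher. Without 1 library the ranges for higher and lower genes were 31 to 600 and 68 to 488 (DI in KO cells), 1 to 16 and 10 to 63 (KO against WT, untreated), 294 to 746 and 506 to 994 (DI in WT cells), 653 to 1201 and 517 to 1025 (KO against WT in DI) and 147 to 597 and 101 to 325 (interaction). The lowest counts for DI in KO cells came without a KO untreated library. A fit that leaves a group with 1 library assumes that it varies like the others.

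With the replicate number as a block, 3 of the same 4 genes were called lower in untreated KO cells, beside 58 of all tested genes. This added Layn (-7.25 from the fit, not at the floor of 3 counts, edgeR adjusted p = 0.0167). For DI in KO cells 1 of the 4 was called higher, beside 501 of all tested genes. Same-numbered libraries deviated from their group means with correlations of -0.08 to 0.16. With 2 libraries in a group this cannot tell whether same-numbered libraries share an animal, culture or batch, so pairing is unknown. The alternatives for named genes outside the 7, chosen after seeing the data, kept 37 of 72 calls in all settings, and none changed sign. Tarm1, Dnmt3l, Layn and Slc16a9 had at most 9 counts over either KO group, and Serpinb9b had 6 over the KO untreated libraries. Whether depth limited their calls was not tested.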

Other observations

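Genes next to the 7 on the chromosome were looked up after the data were seen, taking the nearest tested gene on each side. Serpinb9b lies between 2 serpins that passed the edgeR test in the same comparisons. Serpinb9 ends 9459 bases to its left and Serpinb1b starts 36691 bases to its right. DI over untreated in WT cells was 1.59 for Serpinb9 and 2.32 for Serpinb1b on the log2 scale, and KO over WT in DI was -2.004 and -3.02. Left of Procr, Edem2, a component of the degradation of misfolded proteins in the endoplasmic reticulum, lies 21642 bases away on the opposite strand. It was 1.32 higher with DI in WT cells (edgeR adjusted p = 0.00401) and lower in KO DI than in WT DI cells (-1.73, adjusted p = 0.00066).

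Further neighbours passed in 1 comparison each. Bicc1, 636864 bases right of Slc16a9, was lower in KO DI than in WT DI cells (-2.47, edgeR adjusted p = 0.0111), and Mycbp2, 467811 bases left of Ednrb, was higher there by 0.74 (adjusted p = 0.0294). The 8 other neighbours had log2 changes between -0.68 and 0.51 over the 4 comparisons, with edgeR adjusted p of 0.0868 or more. No test of position was made.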
